A study of Arabidopsis thaliana with 4 samples.

Results

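Plant UDP-glycosyltransferases, named UGT, attach a sugar to small molecules, and beta-glucosidases, named BGLU, remove one. The members described here are the nuclear genes of *Arabidopsis thaliana* whose symbol starts with UGT or BGLU followed by a number and that have a probe set of their own on the Affymetrix ATH1 array. They were found by symbol in the platform annotation, without use of expression values. There were 67 such loci, 47 UGT and 20 BGLU, among 13217 named nuclear loci and 22746 probe sets tested. RefSeq gives 98 nuclear loci a symbol of this form, 58 UGT and 40 BGLU, and the other 31 were not members. Each of the 67 loci had exactly 1 probe set, so no choice between probe sets was needed, and all 67 probe sets were of the plain kind that is not marked as shared between similar transcripts.

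Sugar transfer by UGT enzymes generally makes hormones, phenolics and xenobiotics more soluble and less active, and lets them be stored in the vacuole. BGLU enzymes release the active compound from such stores, as in the defence against herbivores, where an intact glucoside and its hydrolase are kept apart until the tissue is damaged. Both families are large in plants, and many of their genes lie in tandem rows of close relatives.

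RNA came from whole seedlings, harvested 10 days after germination, of the ref6-1 mutant in the Col background and of wild-type Col. All seedlings grew untreated at 23 °C on MS plates, in days of 16 h light and nights of 8 h. REF6 (also JMJ12) encodes a Jumonji-type demethylase of lysine 27 on histone H3, a mark that keeps genes silent. There were 2 arrays of ref6-1 and 2 of Col, labelled biological replicates, and their number limits the precision of every value below. In whole seedlings, fewer cells of a type and less RNA per cell cannot be told apart.

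No UGT or BGLU transcript passed the test for a difference between ref6-1 and Col seedlings. Values were compared in limma on the scale of log2(intensity + 16), on which fold changes of dim probe sets come out too small. A member passed at an adjusted p under 0.05, by Benjamini-Hochberg over the 22746 probe sets. Of the 67 members 0 passed, against 1.48% of all probe sets tested (0.774% higher and 0.708% lower in ref6-1). The smallest adjusted p was 0.0703 among the 47 UGT loci and 0.409 among the 20 BGLU loci. At an unadjusted limma p under 0.05 there were 9 members with a higher and 2 with a lower mean in ref6-1, where 4.12% and 4.38% of all probe sets were found. Log2 fold changes, given throughout as ref6-1 over Col, ran from -0.37 for UGT76E2 to 0.48 for UGT85A2.

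The 95% confidence interval of a single member, not adjusted for their number, lay wholly within a 1.5-fold change in either direction (0.585 in log2) for 62 of the 67 on the log2(intensity + 16) scale, among them all 20 BGLU loci. Over all probe sets it was so for 94.9%. The interval reached beyond a 1.5-fold increase for UGT85A2, UGT76E11, UGT76C2 and UGT84A3, and beyond a 1.5-fold decrease for UGT76E2. With a pseudocount (the constant added before the log) of 1, it held for 52 of the 67, 38 UGT and 14 BGLU. That was 77.6% of the members, against 84.9% of all probe sets. The dim BGLU36 then had a log2 fold change of -0.51, against -0.25 with a pseudocount of 16. The bound thus depends on the pseudocount, and smaller changes can be missed at this number of arrays. The smallest log2 fold changes that passed anywhere on the array were 0.458 upward and -0.473 downward.

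**Figure D1:**
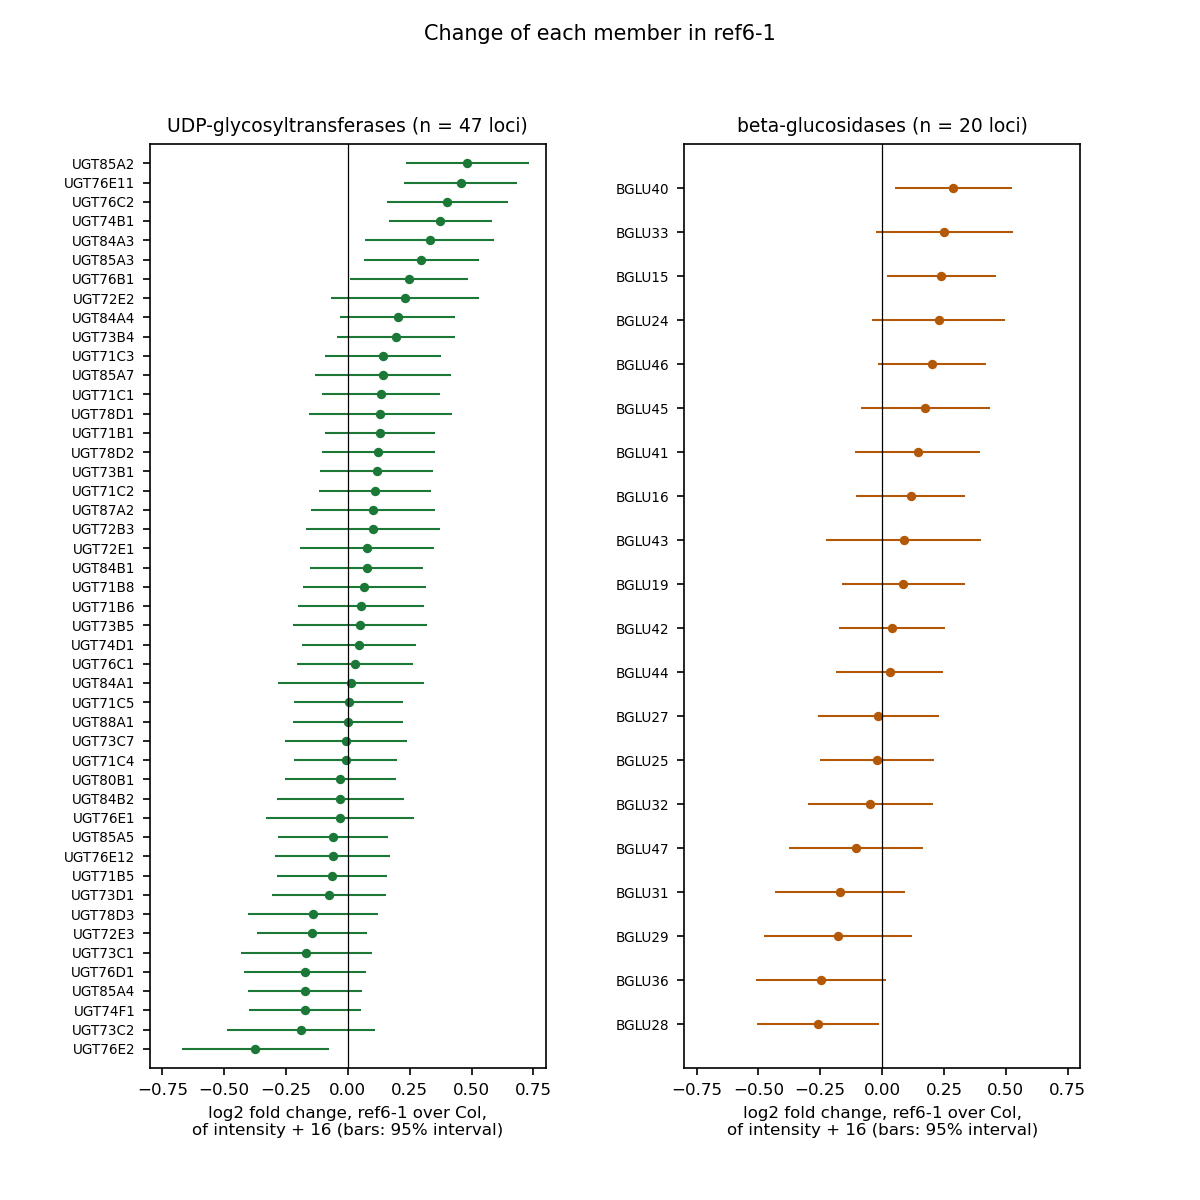
Log2 fold change of intensity + 16, ref6-1 over Col, of each of the 47 UGT loci (left) and 20 BGLU loci (right), ordered by value, with points for the estimate and bars for the limma 95% interval. Most bars cross 0, and the points run from -0.37 for UGT76E2 to 0.48 for UGT85A2.

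More members had arrays that did not overlap upward than downward. Both ref6-1 arrays were above both Col arrays for 24 of the 67 members (16 UGT and 8 BGLU), where 16.1% of all probe sets were so. Both ref6-1 arrays were below both Col arrays for 11 members (9 UGT and 2 BGLU), where 19.5% of all probe sets were so, and the arrays overlapped for 32. As shares, 35.8% of the members lay above and 16.4% below. The median log2 fold change was 0.05 over the UGT loci, with 30 of 47 values above 0, and 0.06 over the BGLU loci, with 12 of 20 above 0. Over all named nuclear loci the median was -0.03, with 40.6% of values above 0. Over all probe sets tested it was -0.02, with 43.6% above 0. When 1 array was left out, the UGT median ran between 0.0213 and 0.0799 and the BGLU median between 0.0164 and 0.101. The lowest BGLU median came without Col replicate 1, with 10 of 20 values above 0, and the highest without Col replicate 2. No test was made of these medians, since the members were chosen with earlier results known.

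The UGT loci nearest the threshold were UGT76E11, UGT85A2, UGT74B1 and UGT76C2, all with higher means in ref6-1. UGT76E11 had intensities of 85.3 and 86.8 on the ref6-1 arrays, against 56.0 and 60.7 on the Col arrays. Its log2 fold change was 0.46 (SE 0.102, limma adjusted p = 0.0703). UGT85A2 had 819 and 909 in ref6-1, against 566 and 663 in Col. The genotypes did not overlap for either gene, and the log2 fold change of UGT85A2 was 0.48 (SE 0.111, adjusted p = 0.0777). UGT85A2 passed the threshold when Col replicate 2 (adjusted p = 0.0314) or ref6-1 replicate 1 (0.0325) was left out, and had an adjusted p of 0.484 when Col replicate 1 was left out. UGT76E11 passed without Col replicate 2 (adjusted p = 0.0337).

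UGT74B1 transfers glucose to the sulfur atom of thiohydroximates in glucosinolate synthesis. It had 982 and 942 in ref6-1, against 731 and 746 in Col, with little spread inside either genotype (log2 fold change 0.37, SE 0.0939, adjusted p = 0.117). UGT76C2, which inactivates cytokinins by N-glucosylation, had 182 and 217 in ref6-1, against 147.1 and 146.6 in Col. The lower of the ref6-1 values was still above both Col values, which lay within 1 unit of each other (log2 fold change 0.40, SE 0.110, adjusted p = 0.164).

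The next loci by p were UGT85A3, UGT84A3, UGT76E2 and UGT76B1, with adjusted p between 0.366 and 0.557. UGT85A3 had 106 and 102 in ref6-1, against 86.1 and 77.1 in Col. UGT84A3, one of the enzymes that make glucose esters of hydroxycinnamates, had 387 and 440 in ref6-1, against 355 and 297 in Col. Both were higher on each ref6-1 array than on either Col array, by log2 fold changes of 0.30 and 0.33, and that of UGT84A3 was 0.209 without Col replicate 2. UGT76E2 was the only member of the 8 with the smallest p in its family whose mean was lower in ref6-1, at 50.1 and 62.3, against 87.5 and 68.0 in Col (log2 fold change -0.37, SE 0.133). It passed without Col replicate 2 (adjusted p = 0.0386), but without Col replicate 1 its log2 fold change was -0.223. UGT76B1, which glucosylates isoleucic and salicylic acid, had 92.9 and 104 in ref6-1, against 76.6 and 83.9 in Col (log2 fold change 0.25, SE 0.107).

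**Figure D2:**
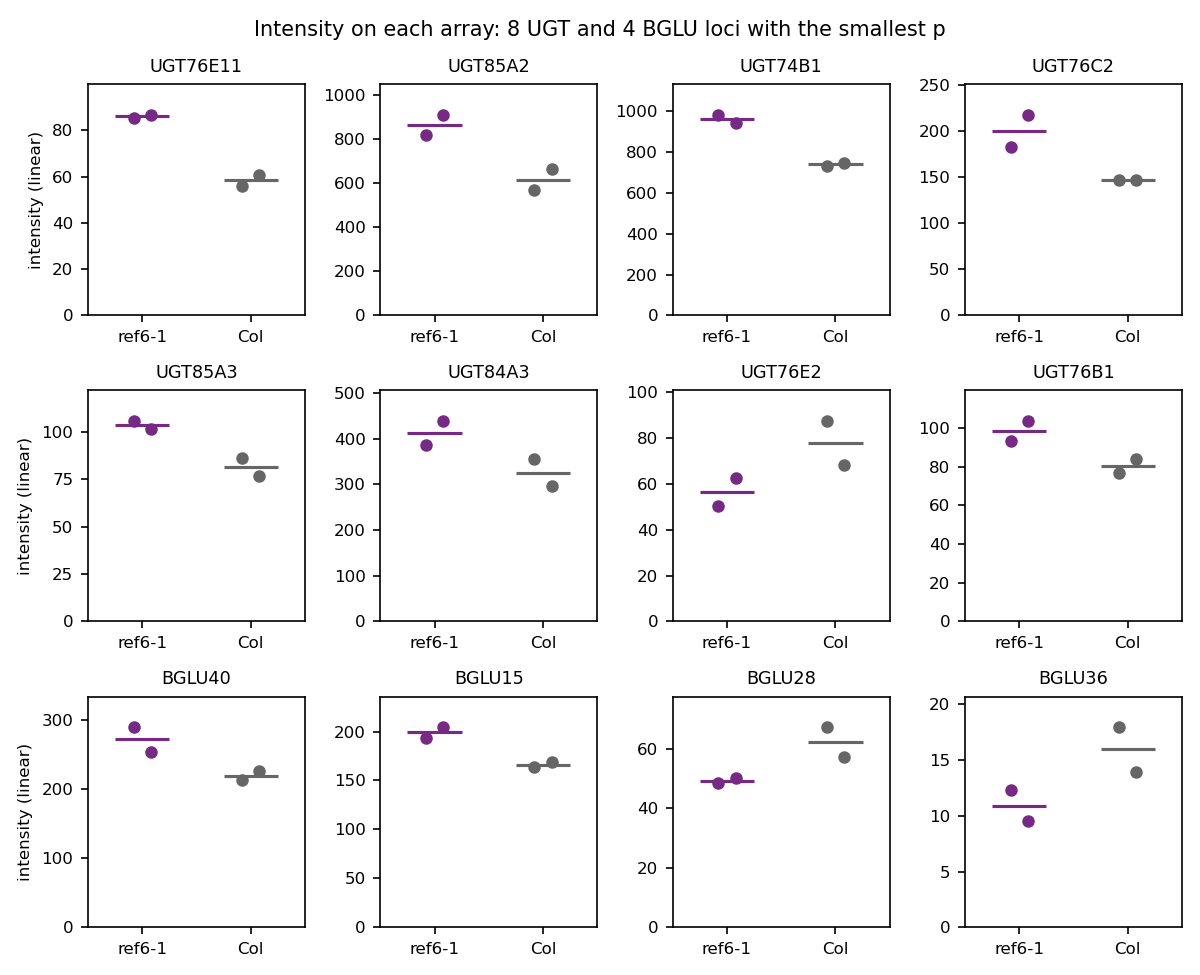
Linear intensity on each array of the 8 UGT and the 4 BGLU loci with the smallest p, ref6-1 left and Col right, with points for arrays and lines for means of 2. The genotypes do not overlap in any of the 12 panels, and UGT76E2, BGLU28 and BGLU36 are the ones with the lower values in ref6-1.

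Among the UGT enzymes known to act on hormones, 11 of 17 listed genes were members, and none passed the limma threshold. Of the 11, 8 had values above 0 and 3 below, with a median log2 fold change of 0.05. Over all named nuclear loci 40.6% of values were above 0, with a median of -0.03. Only 1.48% of all probe sets passed, so a list this short may hold no call. The cytokinin N-glucosyltransferase UGT76C1 had 224 and 234 in ref6-1, against 210.1 and 240 in Col, so that its genotypes overlapped although those of UGT76C2 did not. UGT73C1, which acts on cytokinins and on nitroaromatic xenobiotics, had 34.9 and 27.6 in ref6-1, against 39.5 and 34.5 in Col. UGT74F1, a salicylic acid glucosyltransferase, had 66.3 and 70.05 in ref6-1, against 80.3 and 77.8 in Col. Its ref6-1 arrays lay below both Col arrays (log2 fold change -0.17, adjusted p = 0.764), whereas those of UGT76B1, which shares that substrate, lay above.

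The abscisic acid glucosyltransferases overlapped between the genotypes. UGT71C5 had 541 and 585 in ref6-1, against 577 and 546 in Col, a log2 fold change of 0.00 (SE 0.0981). UGT71B6 and UGT71B8 had log2 fold changes of 0.05 and 0.07. UGT84B1, an auxin glucosyltransferase, had 50.6 and 48.8 in ref6-1, against 46.2 and 46.5 in Col, and its relative UGT84B2 had 19.4 and 16.95 in ref6-1, against 21.1 and 16.8 in Col. UGT74D1, which acts on auxin and its oxidised form, had 356 and 361 in ref6-1, against 324 and 371 in Col.

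Of 17 listed UGT genes of flavonoid, phenylpropanoid and lignin metabolism, 10 were members, none passed, and 8 had values above 0. The median log2 fold change of the 10 was 0.13. Among all named nuclear loci 40.6% of values were above 0, with a median of -0.03, and 1.48% of all probe sets passed. Beside UGT84A3, the hydroxycinnamate glucosyltransferases UGT84A4 and UGT84A1 had log2 fold changes of 0.20 and 0.01. UGT84A4 had 86.04 and 83.7 in ref6-1, against 75.6 and 68.03 in Col, and UGT84A1 had 95.8 and 89.2 in ref6-1, against 106 and 78.4 in Col. Only the second of these overlapped between the genotypes.

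The monolignol glucosyltransferases of the UGT72E group, which act on precursors of lignin, did not share a direction. UGT72E2 had 524 and 707 in ref6-1, against 512 and 521 in Col, with a wide spread in ref6-1 (log2 fold change 0.23, SE 0.133, adjusted p = 0.763; 0.0206 without ref6-1 replicate 2 and 0.441 without ref6-1 replicate 1). UGT72E3 had 132 and 124 in ref6-1, against 143.4 and 142.6 in Col (log2 fold change -0.15, SE 0.0989). UGT72E1 had 868 and 1041 in ref6-1, against 830.4 and 976 in Col (log2 fold change 0.08). In the flavonol branch, the glucosyltransferase UGT78D2 and the rhamnosyltransferase UGT78D1 had log2 fold changes of 0.12 and 0.13, and the arabinosyltransferase UGT78D3 had -0.14. UGT71C1, which acts on phenylpropanoids in vitro, had 136 and 122 in ref6-1, against 111 and 122 in Col, its ref6-1 arrays above both Col arrays by a narrow margin.

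The members with bright probe sets included some with nearly equal values in the genotypes. UGT88A1, the UGT with the brightest Col mean, had 2691 and 2475 in ref6-1, against 2669 and 2489 in Col (log2 fold change 0.00, SE 0.0992). UGT71C4 had 639 and 636 in ref6-1, against 641 and 642 in Col (log2 fold change -0.01, SE 0.0930). The sterol glucosyltransferase UGT80B1 had 136 and 128 in ref6-1, against 137 and 133 in Col (log2 fold change -0.03). Its intervals and those of UGT88A1 and UGT71C4 lay within 0.26 of 0 in log2. UGT73C2 and UGT76D1 were among the lowest values of the family, with log2 fold changes of -0.19 and -0.17, and UGT85A4 also had -0.17, with adjusted p between 0.782 and 0.845 for the 3 genes. Without Col replicate 1, UGT73C2 had -0.00576.

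Among the beta-glucosidases, BGLU40, BGLU15 and BGLU28 had the smallest p. BGLU40 had 289.8 and 253 in ref6-1, against 212 and 226 in Col (log2 fold change 0.29, SE 0.106, adjusted p = 0.409). BGLU15, which hydrolyses flavonol glycosides, had 193 and 205 in ref6-1, against 164 and 168 in Col (log2 fold change 0.24, SE 0.0982, adjusted p = 0.507). BGLU28, a gene known to be induced by sulfur shortage and to act on glucosinolates, had 48.5 and 50.04 in ref6-1, against 67.4 and 57.1 in Col (log2 fold change -0.26, SE 0.110, adjusted p = 0.547). The genotypes did not overlap for these 3 loci. Without Col replicate 1 the log2 fold change of BGLU28 was -0.163. The genotypes did not overlap either for BGLU36, which was dim at 12.3 and 9.52 in ref6-1 and at 18.0 and 13.9 in Col (log2 fold change -0.25, and -0.156 without Col replicate 1).

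Of 16 listed BGLU genes of known role, 6 were members, and none passed, where 1.48% of all probe sets did. Of the 6, 4 had values above 0 and 2, BGLU28 and BGLU25, below, with a median log2 fold change of 0.11. Both ref6-1 arrays were above both Col arrays for 4 of them and below for BGLU28. Over all probe sets the shares were 16.1% above and 19.5% below. Values above 0 made up 40.6% over all named nuclear loci. BGLU46 and BGLU45 hydrolyse monolignol glucosides. BGLU46 had 486 and 529 in ref6-1, against 444 and 433 in Col (log2 fold change 0.20, SE 0.0976, adjusted p = 0.653), and BGLU45 had 64.2 and 79.7 in ref6-1, against 59.4 and 63.9 in Col (log2 fold change 0.17, adjusted p = 0.832; 0.0473 without ref6-1 replicate 2). Both lay above Col on each ref6-1 array. BGLU33 releases abscisic acid from its glucose ester. It had 393 and 418 in ref6-1, against 298 and 383 in Col, so that the Col arrays differed from each other more than the nearest arrays of the genotypes did (log2 fold change 0.25, SE 0.124, adjusted p = 0.667). Without Col replicate 1 it was 0.0775. BGLU42, which takes part in the release of coumarins from roots, had 190.3 and 191 in ref6-1, against 187 and 183 in Col (log2 fold change 0.04, adjusted p = 0.971).

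BGLU16 and BGLU44, with the brightest probe sets of the family, had log2 fold changes of 0.11 and 0.03, with 1384 and 1282 for BGLU16 in ref6-1, against 1180 and 1279 in Col. BGLU24 was dim, at 23.0 and 17.3 in ref6-1, against 13.6 and 16.0 in Col (log2 fold change 0.23, adjusted p = 0.709; 0.113 without ref6-1 replicate 1). BGLU31 and BGLU29 had log2 fold changes of -0.17 and -0.18, with genotypes that overlapped, and that of BGLU29 was 0.00369 without ref6-1 replicate 1. BGLU25 had -0.02, and the remaining loci BGLU19, BGLU27, BGLU32, BGLU41, BGLU43 and BGLU47 lay between -0.11 and 0.14, each with overlapping genotypes.

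Values above 0 were more frequent among brighter members. Signal depends on the probes as well as on the transcript, so a class of intensity is not a rank of transcripts. With a mean Col intensity under 100, 11 of 22 UGT loci and 5 of 12 BGLU loci had values above 0, with medians of 0.00 and -0.03. Between 100 and 500 it was 13 of 18 UGT loci and 5 of 6 BGLU loci, with medians of 0.11 and 0.22. Over 500 it was 6 of 7 UGT loci and both BGLU loci, with medians of 0.08 and 0.07. Over all named nuclear loci the share above 0 was 35.9%, 46.2% and 39.8% in the 3 classes, with medians of -0.04, -0.01 and -0.03. Classes by the mean of all 4 arrays held the same numbers of members with the same medians.

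These class medians moved when 1 array was left out. Without Col replicate 1 the UGT median between 100 and 500 was 0.01, with 9 of 18 above 0, and the median under 100 was 0.0656, the higher of both. Over 500, where there were only 7 UGT loci, it was 0.207 without ref6-1 replicate 1 and 0.0206 without ref6-1 replicate 2, and 4 or 5 of the 7 values stayed above 0 when 1 array was left out. The 6 BGLU loci between 100 and 500 had medians between 0.148 and 0.229 when 1 array was left out, and the 12 under 100 had medians between -0.0731 and 0.0256. No difference between the classes was tested.

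**Figure D3:**
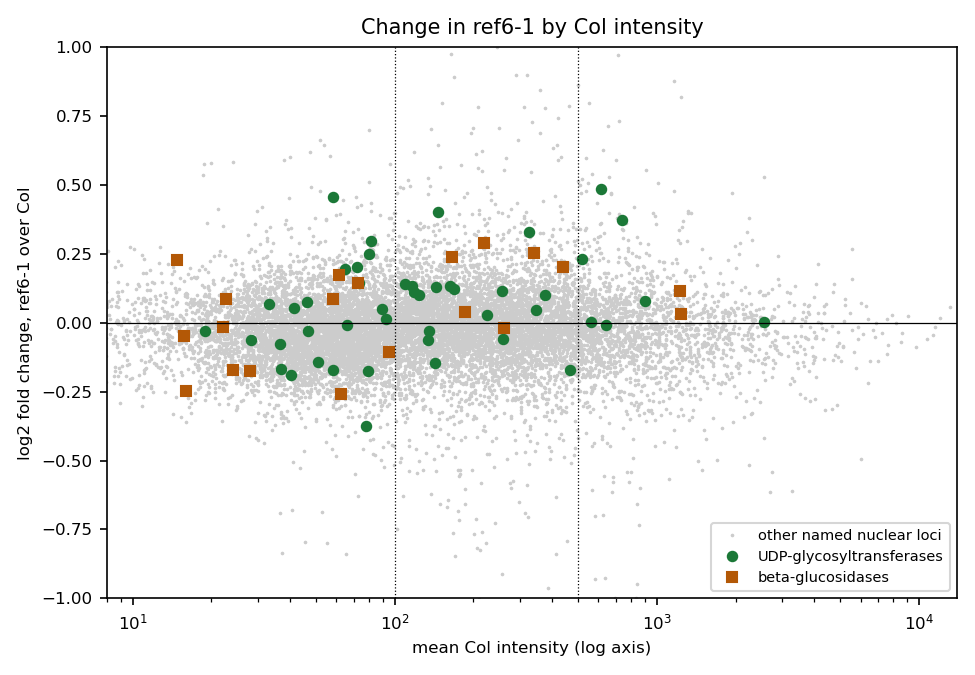
Log2 fold change, ref6-1 over Col, against the mean Col intensity on a log axis, for UGT loci (green circles), BGLU loci (brown squares) and other named nuclear loci (grey), with dotted lines at 100 and 500. All members lie inside the grey cloud, and those right of 100 lie mostly above 0; 230 grey points fall outside the axes.

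The 47 UGT loci fall into 11 numbered subfamilies, and those with several members held values on both sides of 0 in each case. The UGT84 and UGT71 subfamilies had the most one-sided values, with 4 of 5 and 7 of 9 above 0, and medians of 0.08 and 0.07. UGT85 had the widest range upward, from -0.17 for UGT85A4 to 0.48 for UGT85A2. UGT76, which includes the cytokinin enzymes, ran from -0.37 for UGT76E2 to 0.46 for UGT76E11 with a median of 0.00 and 4 of 8 above 0. UGT73 had 3 of 7 above 0 and a median of -0.01. UGT72, UGT74 and UGT78 had 3 of 4, 2 of 3 and 2 of 3 above 0. Of the UGT73 genes, UGT73B4 had the highest value, at 71.6 and 81.9 in ref6-1, against 66.1 and 63.6 in Col (log2 fold change 0.20, adjusted p = 0.736), with genotypes that did not overlap. UGT71C3, UGT71B1 and UGT71C2 were also higher on both ref6-1 arrays, with log2 fold changes of 0.14, 0.13 and 0.11, and UGT73D1 was lower on both, with -0.08. UGT73B1, UGT87A2, UGT72B3, UGT73B5, UGT73C7 and UGT71B5 lay between -0.06 and 0.12 and overlapped, UGT87A2 being a gene with a known role in flowering time.

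Many members are neighbours in the genome. Taking members of 1 family with at most 2 other protein-coding genes between them in the RefSeq order, 42 of the 67 lay in 18 groups, 13 of UGT and 5 of BGLU. In 11 of the 18 groups all members had the same sign. Over all 67 members 62.7% of values were above 0, and the count of groups was not tested. Neighbours can share sequence as well as regulation, and cross-hybridization between close copies was not tested. The row from UGT85A7 (AT1G22340) to UGT85A3 (AT1G22380) had log2 fold changes of 0.14, 0.48, -0.06 and 0.30 for UGT85A7, UGT85A2, UGT85A5 and UGT85A3 in genome order. UGT85A5, at 256 and 241.0 in ref6-1 and 250.3 and 269.6 in Col, thus lay between 2 genes with higher ref6-1 values.

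Other neighbours differed as well. UGT76E12 had 26.3 and 26.7 in ref6-1, against 27.5 and 29.2 in Col (log2 fold change -0.06), beside UGT76E11 at 0.46. UGT76C2 and UGT76C1 had 0.40 and 0.03. In the row of UGT84A1, UGT84A3 and UGT84A4 (AT4G15480 to AT4G15500) the values were 0.01, 0.33 and 0.20. Among the glucosidases, BGLU15 at 0.24 lay next to BGLU28 at -0.26 and BGLU29 at -0.18 (AT2G44450 to AT2G44470), whereas BGLU45 and BGLU46 had 0.17 and 0.20. UGT73C1 and UGT73C2 both had values below 0, as did UGT76E1 and UGT76E2. The difference between neighbours was not tested.

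**Figure D4:**
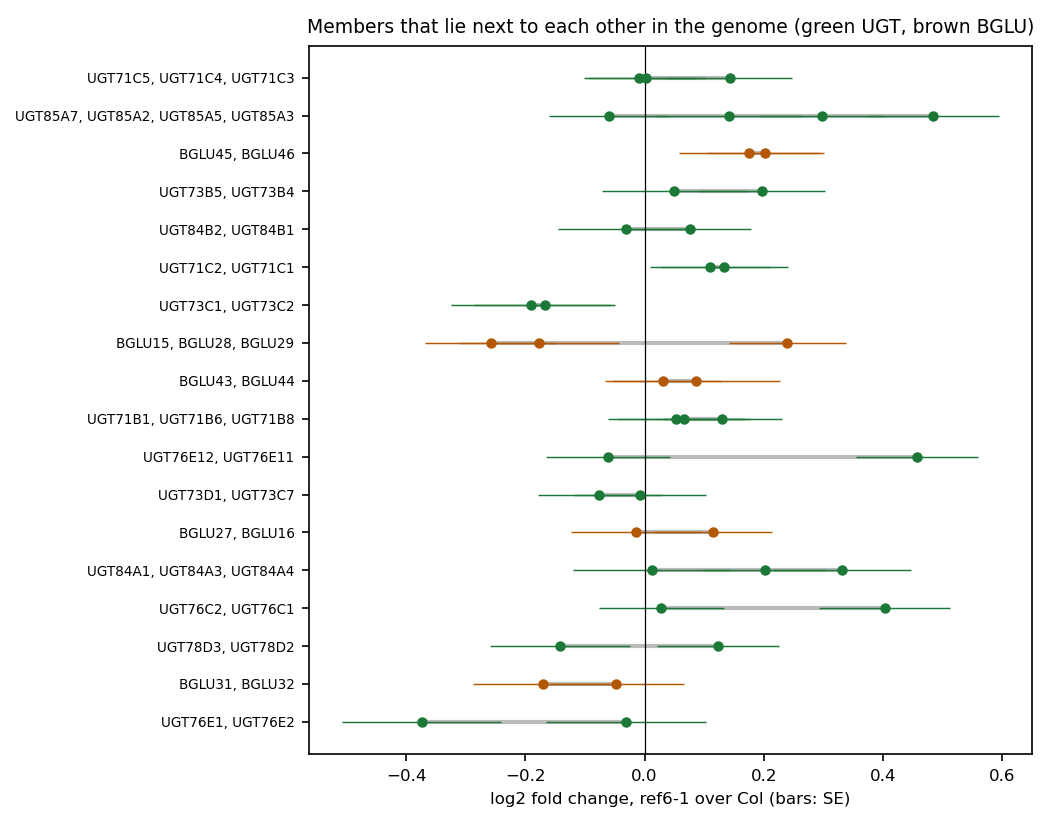
Log2 fold change, ref6-1 over Col, of members that lie near each other in the genome, 1 row for each of the 18 groups in genome order, with points for loci and bars for the SE. The rows of UGT85A2, UGT76E11 and BGLU15 spread over about 0.5 or more, and 11 rows keep to 1 side of 0.

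Some further loci belong to these families but carry another symbol or share a probe set. RefSeq lists a UGT or BGLU number only as a synonym for 6 measured loci. PYK10, known also as BGLU23, is the main glucosidase of ER bodies, compartments of the endoplasmic reticulum that serve in defence. Its intensity was 6558 and 6765 in ref6-1, against 5200 and 5895 in Col (log2 fold change 0.27, SE 0.103, limma adjusted p = 0.453). GT72B1, known also as UGT72B1, conjugates chlorophenols and other xenobiotics. It had 258 and 312 in ref6-1, against 194 and 228 in Col (log2 fold change 0.41, SE 0.122, adjusted p = 0.232). The genotypes did not overlap for either. The other loci, SGT (UGT80A2), AT5G54010 (UGT79B6), UF3GT (UGT79B1) and ATA27 (BGLU20), had log2 fold changes between -0.03 and 0.09 and overlapped.

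A probe set was shared with another gene in 4 cases. The probe set of BGLU21 and BGLU22, root glucosidases that hydrolyse the coumarin glucoside scopolin, had 1100 and 1312 in ref6-1, against 749 and 982 in Col (log2 fold change 0.48, SE 0.139, adjusted p = 0.204). It passed when Col replicate 2 (adjusted p = 0.0181) or ref6-1 replicate 1 (0.0326) was left out. The probe set of UGT73B2 and UGT73B3 had a log2 fold change of 0.18, that of UGT71D1 and AT2G29710 had -0.11, and that of AT1G73885 and UGT89B1 had -0.02, none of them past the threshold.

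The other ER body genes matched by name had values on the same side as PYK10. Of 12 genes listed, 4 were matched and none passed, where 1.48% of all probe sets did. The rest of the list has no value here. In all 4 both ref6-1 arrays were above both Col arrays, where 16.1% of all probe sets were so. NAI1, the transcription factor of ER body formation, had 310 and 324 in ref6-1, against 241 and 269 in Col (log2 fold change 0.30, SE 0.101, adjusted p = 0.337). NAI2, a structural protein of ER bodies, had 1421 and 1498 in ref6-1, against 1202 and 1369 in Col (log2 fold change 0.18, adjusted p = 0.752). The jacalin-related lectins JAL22 and JAL23 join the complex that PYK10 forms in damaged tissue. JAL22 had 1595 and 1651 in ref6-1, against 1143 and 1374 in Col (log2 fold change 0.37, SE 0.110, adjusted p = 0.231). JAL23 had 95.3 and 88.4 in ref6-1, against 42.4 and 65.4 in Col (log2 fold change 0.64, SE 0.149, adjusted p = 0.0797).

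The lower ref6-1 array was replicate 1 for PYK10, the BGLU21 and BGLU22 probe set, JAL22, NAI1 and NAI2, but not for JAL23. Col replicate 1 was the lower Col array for PYK10, the BGLU21 and BGLU22 probe set and all 4 genes. Without it the log2 fold changes were 0.176 for PYK10, 0.287 for the shared probe set, 0.405 for JAL23, 0.238 for JAL22, 0.225 for NAI1 and 0.0905 for NAI2, with adjusted p of 0.197 or more. JAL23 passed without Col replicate 2 (log2 fold change 0.884, adjusted p = 0.000193). Among the BGLU members with numbers near PYK10, BGLU24 was also higher on both ref6-1 arrays, and BGLU19 and BGLU25 had log2 fold changes of 0.08 and -0.02 with overlapping genotypes. Col replicate 1 was the lower Col array for these 3 as well.

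**Figure D5:**
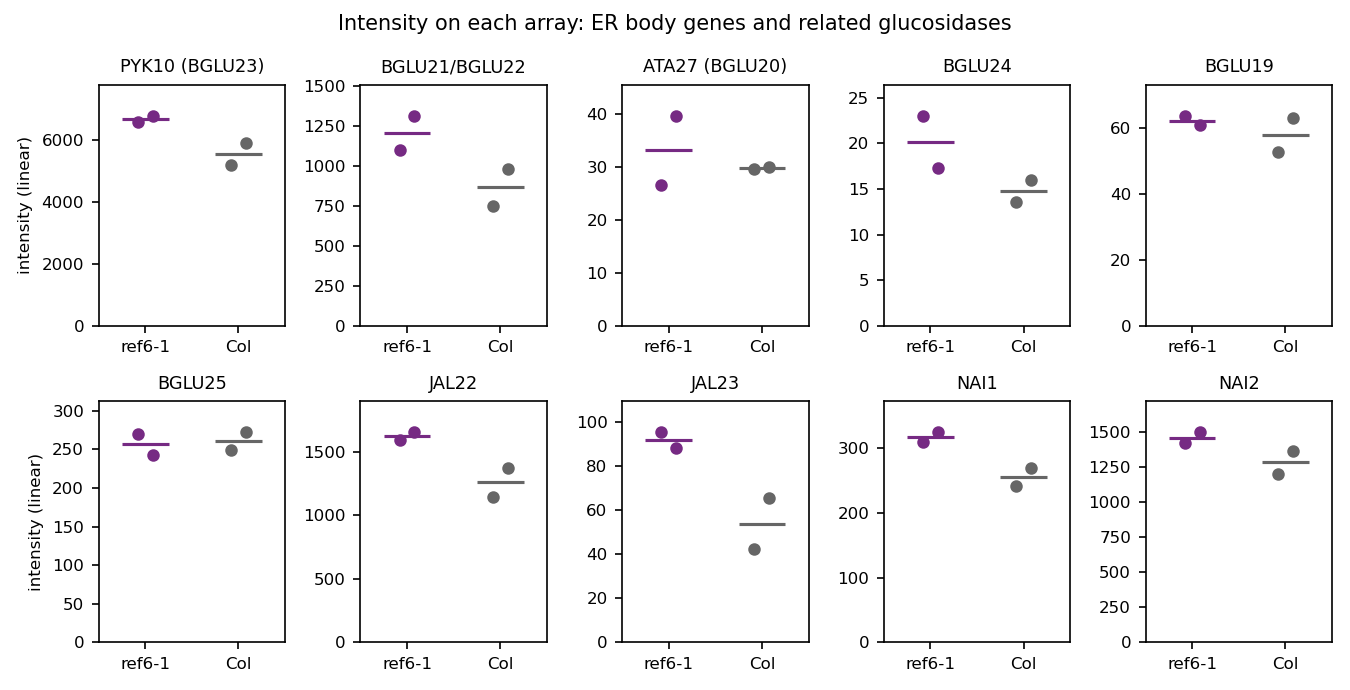
Linear intensity on each array of glucosidases related to PYK10 and of 4 other ER body genes, ref6-1 left and Col right, with points for arrays and lines for means of 2. PYK10, the BGLU21 and BGLU22 probe set, BGLU24, JAL22, JAL23, NAI1 and NAI2 lie higher on both ref6-1 arrays, and ATA27, BGLU19 and BGLU25 overlap.

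Other gene groups of the same metabolism had few members matched by name. Of 28 cytochromes P450, which oxidise many compounds before they are conjugated, none passed in limma, 7 had values above 0, and the median log2 fold change was -0.07. For comparison, 1.48% of all probe sets passed. Of all named nuclear loci 40.6% had values above 0, with a median of -0.03. CYP71B24 had 61.3 and 64.7 in ref6-1, against 91.01 and 124 in Col (log2 fold change -0.63, SE 0.132, adjusted p = 0.0537). It passed with median centring (adjusted p = 0.0414), with a pseudocount of 1 (adjusted p = 0.0481) and without Col replicate 1 (adjusted p = 0.000572). CYP71B23 had a log2 fold change of -0.47 and passed without Col replicate 1 (adjusted p = 0.0351), and CYP71B36 had 0.40 (adjusted p = 0.129). Of 14 glutathione S-transferases, which conjugate xenobiotics to glutathione, none passed, 7 had values above 0, and the median was 0.01, with values from -0.20 for GSTU26 to 0.23 for GSTU25 (0.105 without Col replicate 2).

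Of the 33 listed genes of glucosinolate synthesis and breakdown, only AOP3 and BCAT4 were matched by name outside the members. They had log2 fold changes of 0.09 and 0.06 and overlapping genotypes. The annotation did not list 8730 probe sets, so a gene without a match may still be on the array. Of 36 listed genes of phenylpropanoid and flavonoid synthesis, 4 were matched by name and none passed, where 1.48% of all probe sets did. DFR, an anthocyanin pathway enzyme, had 129 and 144 in ref6-1, against 120 and 102 in Col (log2 fold change 0.27, adjusted p = 0.542; 0.164 without Col replicate 2), and HCT, CCOAMT and BAN had values from -0.04 to 0.04. No ABCC transporter was matched by symbol, so that list has no value.

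The arrays were alike in overall signal, with median intensities of 144.6 and 143.4 in ref6-1 and 146.3 and 142.6 in Col. The lowest value in the table was 1, which no member held on any array. The 3 leaf markers matched by name were RCA, LHCB4.1 and LHCB4.2. They summed to between 34820 and 35323 in ref6-1 and to between 33400 and 35116 in Col, so leaf transcripts were present in each genotype. The 2 root markers matched by name, EXPA7 and EXPA18, summed to 315.0 and 317 in ref6-1, against 309 and 278 in Col. Their log2 fold changes of 0.11 and 0.09 did not pass, with overlapping genotypes for 1 of the genes. The leaf markers had log2 fold changes from 0.02 to 0.06. The part of tissue makeup in the ER body and BGLU values was not tested. The seed markers OLEO3 and LEA4-5 summed to between 152 and 156 in ref6-1 and to between 141 and 183 in Col. Matched by name were 3 of 22 listed leaf, 2 of 21 root, 2 of 11 seed and 0 of 8 flower markers.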

How the data were processed

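RNA of whole seedlings was hybridised to 4 ATH1 arrays, from 10 ug of total RNA per the labels' protocols. The deposited values are 1 intensity per probe set and array on a linear scale, made by the authors. No label or file header says how probes were summarized, background-corrected or normalized. The 4 arrays have similar medians, and any scaling before deposit would remove a shift common to all genes.

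The table holds 22810 probe sets, of which 64 controls were left out. Values were taken as log2(intensity + 16) without further scaling or filter, and fitted with lmFit and eBayes (trended prior) of limma 3.58.1 under R 4.3.3, ref6-1 minus Col. Tests were two-sided and adjusted by Benjamini-Hochberg over the 22746 probe sets; each adjusted p-value printed comes from limma. A probe set had a median of 9.8 total degrees of freedom, mostly from spread shared across probe sets. Nothing says that the replicates were separate cultures beyond the label "biological", so p-values measure the spread between these arrays.

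The platform annotation named a single gene for 13513 probe sets and several for 503, and did not list 8730. Of the first, 13367 matched a nuclear locus of RefSeq (TAIR10.1). No coordinates are printed, because no label or header names the build behind the array. Members and lists were chosen with earlier results of these data known. Genes named were, in each family, the 8 with the smallest p, the 3 highest and 3 lowest fold changes, the 5 brightest in Col and the genes of the role lists, and, from each other list, up to 4 with the smallest p. Further members appear as neighbours, in ranges or with their subfamily, chosen after their values were seen. An exact permutation of 2 against 2 arrays cannot go below p = 0.333, so none was used.

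As alternatives, arrays were quantile normalized or median centred, the pseudocount was set to 1 or 64, the dimmest 30% or 50% of probe sets were dropped, the prior had no trend, a block for the replicate number was added, each array in turn was removed, and calls needed a log2 fold of at least 0.6.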

Additional observations from a re-analysis of the deposited data

How the results depend on the processing

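No member passed under quantile normalization, median centring, pseudocounts of 1 or 64, either filter or no intensity trend, and no locus added by synonym passed. Requiring a log2 fold of at least 0.6 can only remove calls, so that setting could not change the count. Leaving out 1 array gave 0 to 3 UGT calls, 0 BGLU calls and 273 to 533 probe sets in all. The UGT median (0.0530) was 0.0828 after quantile normalization, 0.0705 and 0.0353 with pseudocounts of 1 and 64, 0.113 and 0.109 without the dimmest 30% and 50% (44 and 26 members left), and 0.0213 to 0.0799 with 1 array left out; the BGLU median (0.0623) was 0.129 and 0.159 with the filters and 0.0164 to 0.101 with 1 array left out. The filters keep brighter members; otherwise the cause was not tested. Both medians were above 0 in all 14 settings, but not every setting could move them. Dropping the intensity trend or adding the replicate block leaves each fold change as it was, so the medians stayed at 0.0530 and 0.0623. All settings reuse the same arrays, so their number is not a count of independent tests. The titles' replicate numbers are shared, but nothing states that they mark a batch, and with 2 pairs the correlation of 0.279 between same-numbered deviations does not establish a pairing. With a replicate block 1636 probe sets were called, 7 UGT (UGT76E11, UGT85A2, UGT74B1, UGT76C2, UGT84A3, UGT76E2 and UGT72E2) and 2 BGLU (BGLU40 and BGLU33); that fit estimated an unlimited prior, so its p-values rest wholly on spread shared across probe sets. Of the 43 members named by rule, 14 changed sign in some setting, none of them called. UGT84B2 was 0.0184 and AT5G54010 0.0205 after quantile normalization. With 1 array left out the ranges were -0.357 to 0.00369 for BGLU29, -0.0175 to 0.281 for UGT78D1, -0.051 to 0.207 for UGT72E1, -0.0169 to 0.150 for UGT71B8, -0.0415 to 0.147 for UGT71B6, -0.0465 to 0.140 for UGT74D1, -0.0311 to 0.0933 for BGLU44, -0.0708 to 0.0111 for UGT80B1, -0.0603 to 0.117 for UGT76C1, -0.121 to 0.0594 for UGT84B2, -0.092 to 0.0505 for BGLU25, -0.176 to 0.199 for UGT84A1, -0.0521 to 0.0578 for UGT71C5 and -0.0583 to 0.0618 for UGT88A1. Among genes outside the members they were -0.0733 to 0.00658 for SGT, -0.0932 to 0.0726 for AT5G54010, -0.032 to 0.0979 for UF3GT, -0.102 to 0.281 for ATA27, -0.181 to 0.151 for the AT1G73885 and UGT89B1 probe set, -0.0113 to 0.137 for BCAT4, -0.0655 to 0.136 for BAN and -0.0891 to 0.0449 for HCT. The settings for synonym loci, intensity classes and other genes were chosen after seeing the data. The unstated background correction limits what dim probe sets can show.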
